A study of Mus musculus with 8 samples.

Results

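Respiratory chain genes of Paneth cells were described here from RNA-seq counts, with the nuclear and the mitochondrial genome kept apart. Members were all protein-coding genes of the deposited count table whose mouse symbol starts with mt-, with Nduf followed by a, b, c, s or v and a digit, with Uqcr, Cox4 to Cox8, Cyc1 or Atp5, or is Sdha, Sdhb, Sdhc or Sdhd, without the Ndufaf assembly factors and without pseudogenes. This gave 102 of the 55414 identifiers of the table, 89 in the nuclear and 13 in the mitochondrial genome. The nuclear members divide into 37 of complex I, 4 of complex II, 9 of complex III, 20 of complex IV and 19 of complex V. Ndufa4 was counted with complex IV, where its protein sits despite the name, and so was its paralog Ndufa4l2. Another identifier with the symbol Atp5po, ENSMUSG00000116933, had no count in any mouse.

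Paneth cells are secretory cells at the base of the small intestinal crypt that release antimicrobial peptides. They were sorted by FACS from small intestines of 8 mice of the strain C57BL/6J, without any engineered allele. Standard chow (control diet) was given to 4 mice and zinc-depleted chow (zinc-deficient diet) to the other 4, freely and for 7 weeks. Ages and the batch of each sort were not given, and 1 mRNA library was made per mouse.

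The respiratory chain passes electrons from NADH and succinate to oxygen through complexes I to IV and uses the proton gradient built on the way to drive ATP synthase, complex V. Complexes I, III, IV and V combine subunits made from mitochondrial DNA with subunits made from nuclear genes and imported, while complex II is wholly nuclear. The mitochondrial mRNAs are cut from long transcripts of a compact circular genome, and most of them come from the same strand, mt-Nd6 being the exception. Nuclear and mitochondrial subunits are needed in fixed proportions, and the secretory work of a Paneth cell draws on the ATP they supply.

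Between 8557690 and 11826416 counts per library were present in control mice, and between 9924102 and 12648005 in zinc-deficient mice. Alpha-defensin (Defa) genes made up 35.7% to 50.9% of each library, and the 8 Paneth cell markers summed to between 462266 and 608747 CPM (counts scaled to a library of 1000000). Markers of stromal and vessel, erythroid and muscle cells stayed below 1 CPM in sum in every mouse, with Col1a1, Col3a1, Dcn, Alas2 and Actg2 at 0. Goblet cell markers summed to 2492 to 3109 CPM in control mice and to 2019 to 4372 CPM in zinc-deficient mice, with mice 3 and 4 of that diet highest. In zinc-deficient mouse 4, Muc2, Clca1 and Agr2 stood above all control mice, Fcgbp and Zg16 below them, and Spdef and Tff3 within their range. Enterocyte markers summed to 314 to 479 CPM in control mice and to 195 to 478 CPM in zinc-deficient mice. Tuft cell markers stood at 348 CPM in zinc-deficient mouse 3 and at 13.4 to 82.03 CPM in the others. Immune markers stood at 144 CPM in control mouse 1 and at 37.6 to 71.5 CPM in the others. Cd74 made up 120 CPM of this sum in control mouse 1 and stood at 7.02 to 20.1 CPM in the others. In control mouse 1, Lyz2 was the lowest of all 8 mice (23.0 CPM), and Ptprc, Cd3e, Cd79a and C1qa stayed below 1 CPM. Enteroendocrine markers stood at 13.3 to 47.3 CPM. Of the 5 stem and transit amplifying markers, the summed level was 1222 to 1972 CPM on the control diet and 417 to 954 CPM on the zinc-deficient diet, and Top2a was called lower (log2 fold change -1.18 ± 0.21 SE, adjusted p = 0.0230, quasi-likelihood test of edgeR, Benjamini-Hochberg adjusted). The part of these markers in the results for the respiratory chain was not tested. The composition factors of TMM normalisation, which rescale a library whose most abundant RNAs crowd out the rest, ranged from 0.928 to 1.57 in control mice and from 0.719 to 1.095 in zinc-deficient mice. Control mouse 1 had the highest factor and zinc-deficient mouse 2 the lowest. Levels below are in normalised CPM, which is CPM divided by this factor, unless a share of counts is named. In bulk RNA, fewer cells of a type and less RNA per cell cannot be told apart.

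The most uneven feature of the chain in these counts was in the mitochondrial genome. Of its 13 mRNAs, the 6 genes mt-Co2, mt-Atp8, mt-Atp6, mt-Co3, mt-Nd3 and mt-Nd4l had no count in any of the 8 mice, while mt-Co1, which lies just before them, had 199430 counts over all mice and mt-Nd4, which lies just after them, had 32663. The 6 genes without counts are neighbours and fill the stretch from mt-Co2 to mt-Nd4l (chrM:7013-10173, GRCm39, plus strand). The same stretch has a copy in the nuclear genome on chromosome 1, and the sequences are shown because they carry this finding. Each of the following runs of 60 coding bases is given from the mitochondrial gene and then from its nearest nuclear copy, and capitals mark the bases that differ.
mt-Co2 (chrM:7013-7072, plus strand): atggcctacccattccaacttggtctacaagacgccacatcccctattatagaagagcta
nuclear copy of mt-Co2 (chr1:24654587-24654646, minus strand): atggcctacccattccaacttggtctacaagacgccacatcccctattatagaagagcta
mt-Co3 (chrM:8607-8666, plus strand): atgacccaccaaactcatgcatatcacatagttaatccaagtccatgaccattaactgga
nuclear copy of mt-Co3 (chr1:24652993-24653052, minus strand): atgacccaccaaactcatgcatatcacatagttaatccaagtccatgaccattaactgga
mt-Co1 (chrM:5787-5846, plus strand): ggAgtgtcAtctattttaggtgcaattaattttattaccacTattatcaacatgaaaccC
nuclear copy of mt-Co1 (chr2:22479141-22479200, minus strand): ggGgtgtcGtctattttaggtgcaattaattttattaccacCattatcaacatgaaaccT
mt-Cytb (chrM:14970-15029, plus strand): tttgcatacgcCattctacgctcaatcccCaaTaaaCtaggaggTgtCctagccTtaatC
nuclear copy of mt-Cytb (chr4:79923051-79923110, plus strand): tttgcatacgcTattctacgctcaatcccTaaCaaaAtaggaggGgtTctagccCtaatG

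The mt-Co2 and mt-Co3 stretches had 0 differences from their copy, the mt-Co1 stretch 4 and the mt-Cytb stretch 8. For mt-Co1 and mt-Cytb the stretch with the most differences was taken, so these runs show where the copies can be told apart and not the average divergence. Over the whole genes, mt-Co2 (684 bases), mt-Atp8 (204 bases), mt-Atp6 (681 bases), mt-Co3 (784 bases) and mt-Nd4l (297 bases) aligned to chromosome 1 over their full length with 0 mismatches, and mt-Nd3 over 345 of its 348 bases. For mt-Nd4, 876 of 1378 bases aligned there with 0 mismatches. The best copy of mt-Co1, on chromosome 2, had 37 mismatches in 1545 bases, but 410 of the 1476 windows of 70 bases of mt-Co1 also occurred unchanged at the chromosome 1 copy, and that of mt-Cytb, on chromosome 4, had 81 mismatches in 1143 aligned bases. mt-Nd1 had no nuclear copy in this search.

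Each mRNA was also cut into all its windows of 70 bases, and a window was called unique when it occurred neither elsewhere in the GRCm39 genome nor in a transcript of another gene. In mt-Co2, mt-Atp8, mt-Atp6, mt-Co3 and mt-Nd4l, 0% of the windows were unique, and in mt-Nd3 1.08% were. By contrast, 38.3% were unique in mt-Nd4, 57.9% in mt-Co1, 93.8% in mt-Nd2, 97.8% in mt-Nd5, and 100% in mt-Nd1, mt-Nd6 and mt-Cytb. Windows of 50 and of 100 bases left the 5 genes at 0% as well. A read from these genes matches both places equally well, and the way such reads were counted was not given in the sources used here. A count of 0 for these 6 genes is therefore no measurement of their mRNA. The annotated genes of the copy had few counts as well: Gm28661, Atp6-ps, Gm28437, Gm28438, Gm28439, Gm10222 and Gm29216 had between 0 and 15 counts each over all mice. Where such reads went in the counting was not tested.

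**Figure D1:**
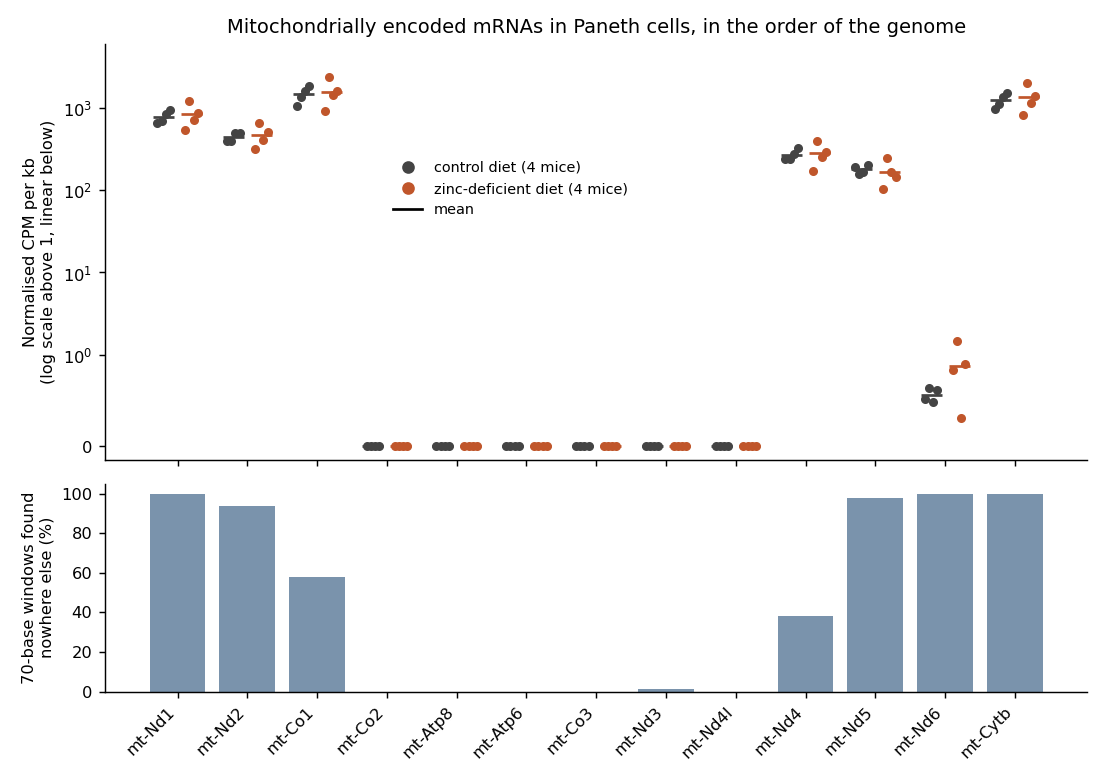
Levels of the 13 mitochondrially encoded mRNAs in genome order (upper panel, normalised CPM per kb of mRNA, log scale above 1 and linear below; points are mice, lines are means of 4) and the share of their 70-base windows found nowhere else (lower panel, %). The 6 genes from mt-Co2 to mt-Nd4l are at 0 in all 8 mice and have at most 1.08% unique windows, and the 7 other genes were counted.

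Among the 7 mitochondrial mRNAs with counts, the order of the levels was compared per kb of mRNA, and shared windows make mt-Co1 and mt-Nd4 the least certain. mt-Co1, the catalytic subunit of cytochrome c oxidase (complex IV), was highest with 1526 ± 455 normalised CPM per kb (SD, n = 8), followed by mt-Cytb, the cytochrome b of complex III, with 1292 ± 367. The spreads over mice of these neighbours overlapped, although mt-Co1 was the higher of them in 8 of 8 mice. The complex I subunits followed with 810 ± 213 for mt-Nd1, 461 ± 103 for mt-Nd2, 275 ± 67.3 for mt-Nd4 and 173 ± 43.1 for mt-Nd5. mt-Nd6, the complex I subunit read from the other strand, stood far below at 0.718 ± 0.354, with 31 counts over all mice although all of its windows were unique. The library kit keeps the strand of the RNA, but whether the counting used it was not given in the sources used here. What the low level rests on was not tested.

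No mitochondrial mRNA passed the test between the diets. In normalised CPM, mt-Co1 stood at 1636, 2120, 2512 and 2829 in control mice 1 to 4 and at 1417, 3667, 2205 and 2480 in zinc-deficient mice 1 to 4 (log2 fold change 0.10 ± 0.28 SE, adjusted p = 0.938, quasi-likelihood test of edgeR, Benjamini-Hochberg adjusted). The zinc-deficient mice spanned the whole range, mouse 1 below all control mice and mouse 2 above them. mt-Cytb had 1119, 1267, 1556 and 1741 on the control diet and 935, 2288, 1332 and 1590 on the zinc-deficient diet (0.11 ± 0.26, adjusted p = 0.927 in the same test). mt-Nd1 had 621, 660, 813 and 915 against 514, 1168, 686 and 828 (0.09 ± 0.24, adjusted p = 0.938). The complex I subunits mt-Nd2, mt-Nd4 and mt-Nd5 had the same arrangement, with zinc-deficient mouse 1 lowest and mouse 2 highest of all 8.
mt-Nd2 had 416, 414, 518 and 509 normalised CPM against 333, 686, 428 and 525 (0.09 ± 0.21, adjusted p = 0.931, edgeR). mt-Nd4 had 329, 327, 381 and 446 against 239, 552, 354 and 400 (0.06 ± 0.22, adjusted p = 0.958). mt-Nd5 had 345, 288, 302 and 372 against 189, 455, 304 and 264, and was the only tested mitochondrial mRNA with a fold change below 0 (-0.11 ± 0.22, adjusted p = 0.912). mt-Nd6, which did not pass the filter on low counts, stayed between 0.159 and 0.757 in all mice. Of the 6 tested mitochondrial mRNAs 0 were called, against 0.403% of the 10911 genes tested, and 0 had an unadjusted p under 0.05. Their median log2 fold change was 0.09, beside -0.01 over all genes tested. Without zinc-deficient mouse 2 this median was -0.16, so its direction rests on 1 mouse.

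As a share of the library, the mitochondrial mRNAs took 0.701%, 0.590%, 0.564% and 0.646% of the counts of the control mice and 0.339%, 0.634%, 0.581% and 0.515% of those of the zinc-deficient mice. The means were 0.625% ± 0.061 and 0.517% ± 0.128 (SD, n = 4 each). Without zinc-deficient mouse 1, the difference went from -0.108 to -0.048 percentage points. The nuclear members together took 0.424%, 0.419%, 0.403% and 0.421% in control mice and 0.358%, 0.308%, 0.438% and 0.393% in zinc-deficient mice, with means of 0.417% ± 0.010 and 0.374% ± 0.055. Control mice lay close together here, with zinc-deficient mice 1, 2 and 4 below all of them and mouse 3 above. The difference of -0.042 percentage points was -0.020 without zinc-deficient mouse 2. When both shares were taken from TPM it was -0.017, but those nuclear shares were smaller, 0.110% to 0.132% in control mice. In normalised CPM the nuclear members summed to 3772 ± 805 on the control diet and 4189 ± 358 on the zinc-deficient diet, so the order of the means turns with the scaling. With the defensin genes left out of the total, the differences in share were -0.043 percentage points for nuclear and -0.13 for mitochondrial members. These shares were larger, 0.659% to 0.786% and 1.01% to 1.21% in control mice. Differences in points are therefore not on one scale across these totals.

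The ratio of mitochondrial to nuclear counts needs no library total. It was 1.65, 1.41, 1.40 and 1.53 in control mice and 0.947, 2.06, 1.33 and 1.31 in zinc-deficient mice. Control mice thus held 1.499 ± 0.119 mitochondrial counts per nuclear count and zinc-deficient mice 1.41 ± 0.47. The mice of the zinc-deficient diet scattered more widely, and mice 1 and 2 of that diet marked the lowest and the highest value of all 8. On the log2 scale the zinc-deficient minus control difference was -0.14, and it was 0.03 without zinc-deficient mouse 1 and -0.34 without mouse 2, so no direction can be read. Since 6 mitochondrial mRNAs are missing from the sum, the ratio is a comparison between mice and not a measure of how much of the chain each genome supplies.

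**Figure D2:**
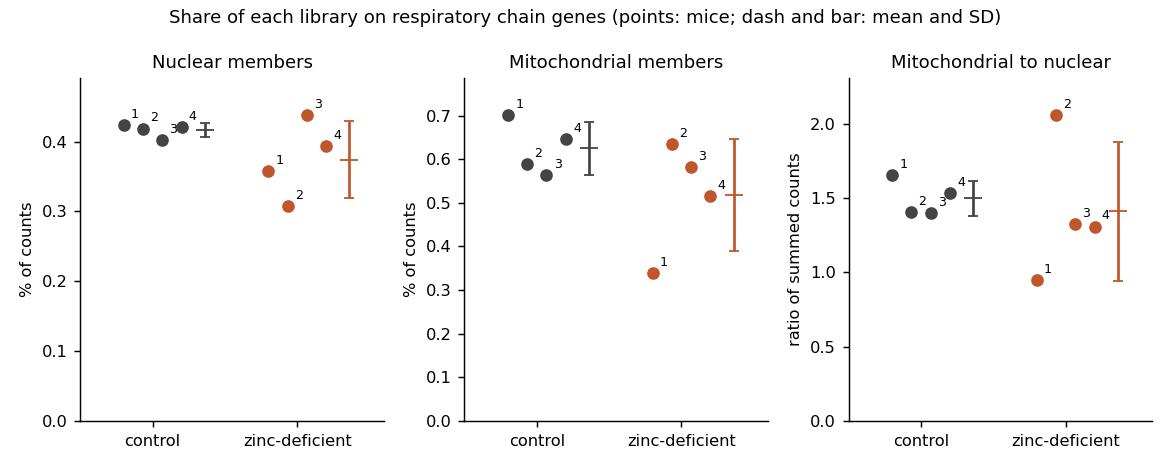
Share of the counts of each mouse on the 89 nuclear members (left) and the 13 mitochondrial members (middle), both in % of counts, and the ratio of their summed counts (right). Points are mice with their replicate number, dashes and bars are mean and SD of 4 mice; zinc-deficient mouse 1 is lowest in mitochondrial share (0.339%) and mouse 2 highest in ratio (2.06).

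Of the 89 nuclear members, 82 had at least 1 count and 78 passed the filter on low counts. Measured per kb of mRNA over all 8 mice, the F1 beta subunit Atp5f1b, which carries the catalytic sites of ATP synthase, was highest with 222 ± 27.5 normalised CPM per kb (SD). Its partner Atp5f1a, the F1 alpha subunit, stood at 132 ± 18.5. Between them lay Ndufa4 at 160 ± 51.3 and Cox4i1 at 159 ± 35.2, the latter the largest nuclear subunit of cytochrome c oxidase, and Atp5f1e, the small F1 epsilon subunit, at 154 ± 52.0. The spreads of Ndufa4, Cox4i1, Atp5f1e and Atp5f1a overlapped, so their order is not resolved. Highest in the other complexes were Uqcr10 in complex III (101 ± 26.0), Ndufa1 in complex I (79.4 ± 19.1) and Sdhd, a membrane anchor of succinate dehydrogenase, in complex II (54.6 ± 10.1).

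Of the 78 nuclear members tested between the diets, 0 were called by edgeR's quasi-likelihood test at an adjusted p of 0.05, beside 0.403% of all genes tested (16 higher and 28 lower). The fold changes were mostly above 0: 64 members were above and 14 below, with a median log2 fold change of 0.25 and a range from -0.25 to 0.59, while over all genes 5375 were above and 5536 below. At an unadjusted p under 0.05 there were 7 members, all of them higher, against 483 higher and 659 lower of all genes. By DESeq2 0 of 82 members were called as well, with 10 at an unadjusted p under 0.05. Over the 78 members, this unadjusted count was 20 with replicate number as a block and 3 with library size only. With 1 mouse left out it ranged from 2 (without control mouse 2 or zinc-deficient mouse 4) to 22 (without control mouse 4). The share of all genes at this cutoff is not given here for these settings, so these counts are no result about the members. The median was 0.06 without control mouse 1, the mouse with the highest composition factor, and between 0.19 and 0.35 without any other mouse. With library size as the only scaling it was -0.06, where the median of all genes went to -0.37, so that the members stayed 0.30 above the rest instead of 0.25.

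By complex, the medians were 0.24 for complex I (30 of 36 above 0), 0.05 for complex II (3 of 4), 0.29 for complex III (6 of 9), 0.26 for complex IV (12 of 12) and 0.24 for complex V (13 of 17). Complex II, which has no mitochondrial subunit, had the lowest median of the 5, but with 4 members and a median SE of 0.16 per member this was not set against the others by a test.

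**Figure D3:**
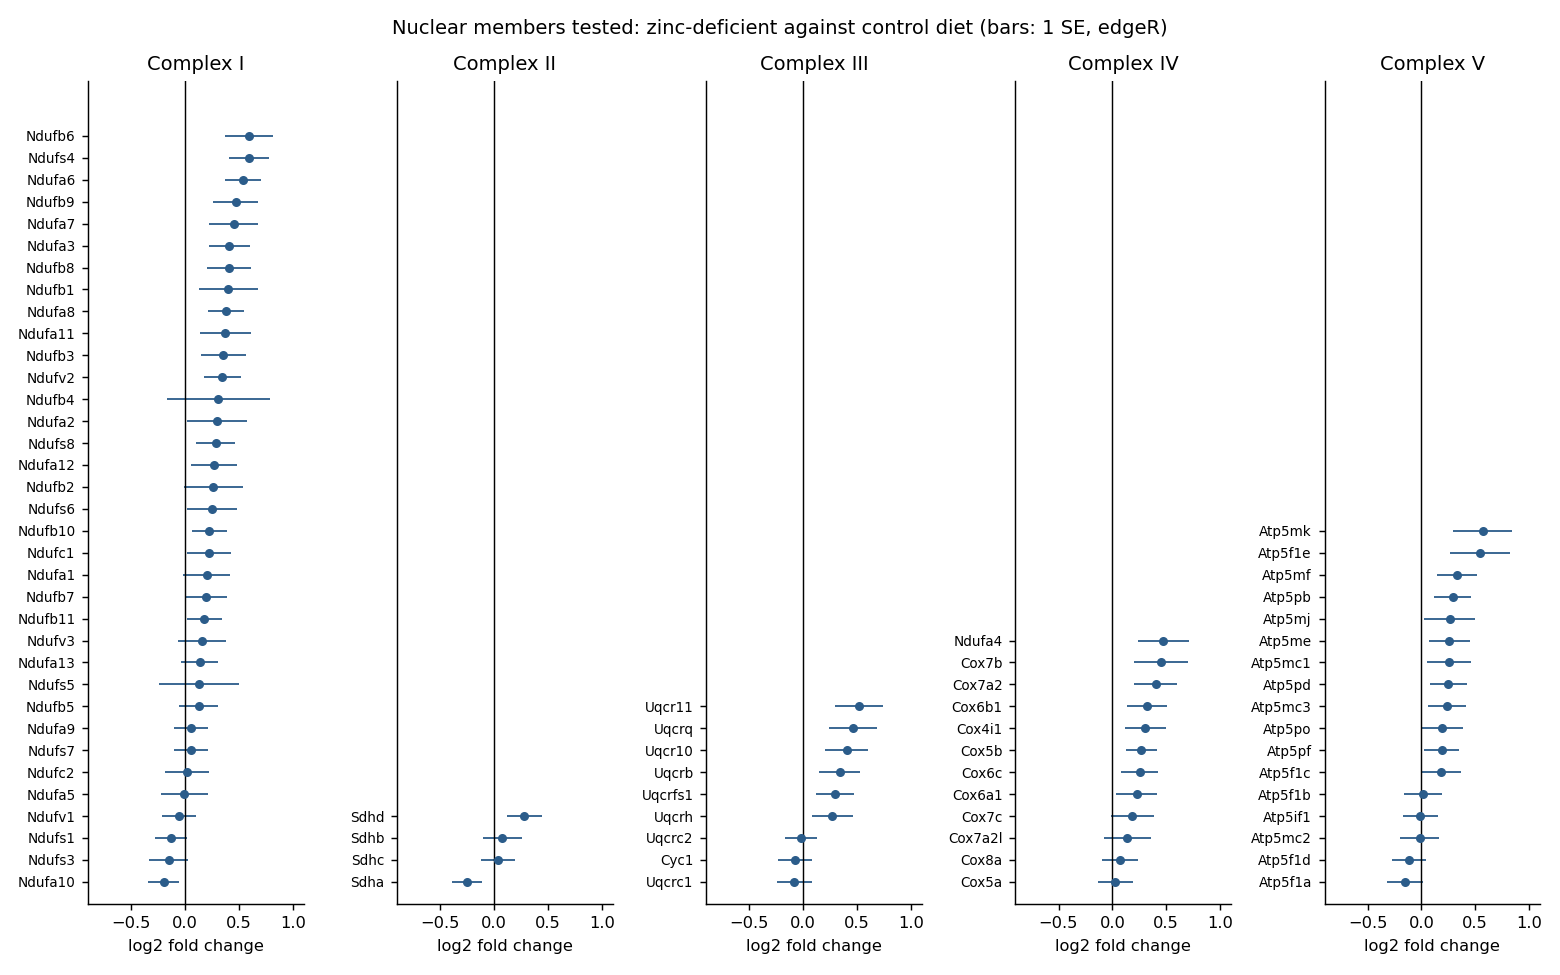
Fitted log2 fold change of 77 of the 78 nuclear members tested, zinc-deficient against control diet, by complex. Points are genes and bars are 1 SE, derived from the F statistic of edgeR. Most points lie right of 0, the lowest is Sdha (-0.25) and the highest are Ndufb6 and Ndufs4 (both 0.59), and no gene passed the adjusted threshold.

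Values of the diets did not overlap for 2 nuclear members, both in complex I and both higher on the zinc-deficient diet, or 2 of 78, beside 2.3% of all genes tested that lay apart in that direction (3.79% lay apart in the other direction and 6.09% in either). A share this near the background is not a result about the members. Ndufs4 (chr13:114421982-114524794, GRCm39, minus strand), an accessory subunit of the matrix arm of complex I, had 13.9, 14.6, 19.9 and 19.8 normalised CPM in control mice 1 to 4 and 21.4, 34.2, 21.2 and 25.8 in zinc-deficient mice 1 to 4. The highest control mouse lay just below the lowest zinc-deficient mouse, and mouse 2 of the zinc-deficient diet was the highest. The log2 fold change was 0.59 ± 0.19 (adjusted p = 0.220, edgeR). Ndufa6 (chr15:82234340-82238523, minus strand), a matrix arm subunit that binds the mitochondrial acyl carrier protein, had 22.1, 35.2, 37.6 and 33.8 against 43.1, 44.9, 44.8 and 53.1 (0.54 ± 0.16, adjusted p = 0.204, edgeR). Here control mouse 1 was far below the other control mice, and the zinc-deficient mice lay close together. Ndufa6 overlaps Smdt1 on the opposite strand and Ndufb6, described next, overlaps Smim27, with 58.9% and 55.4% unique windows. Without control mouse 1 the adjusted p was 0.407 or more for every tested nuclear member.

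Members at the ends of the fold changes of their complex were as follows. Ndufb6, an accessory subunit of the membrane arm of complex I, had 9.59, 12.3, 16.2 and 20.3 normalised CPM in control mice and 17.2, 25.5, 17.5 and 27.2 in zinc-deficient mice (log2 fold change 0.59 ± 0.22, adjusted p = 0.330, edgeR). Values of the diets overlapped, since control mouse 4 lay above zinc-deficient mice 1 and 3. In complex I, Ndufa1, the member with the highest level per kb, had 17.8, 35.1, 37.1 and 43.9 against 32.6, 45.5, 34.6 and 40.4 (0.20 ± 0.22, adjusted p = 0.810).

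Sdha, the flavoprotein that oxidises succinate in complex II, had 108, 109, 112 and 106 normalised CPM in control mice and 87.9, 77.6, 110 and 89.4 in zinc-deficient mice. The control mice were nearly equal, and 3 of the 4 zinc-deficient mice lay below all of them, with mouse 3 inside their range. Its log2 fold change of -0.25 ± 0.14 was the lowest of all nuclear members (adjusted p = 0.571, edgeR). The membrane anchor Sdhd had 44.2, 58.4, 70.9 and 74.97 against 69.1, 85.5, 67.7 and 79.0 (0.28 ± 0.16, adjusted p = 0.590). Sdha and Sdhd thus had the lowest and highest fold change of one complex whose subunits are assembled together, and the values of the diets overlapped for each.

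In complex III the ends were Uqcr11, a small membrane subunit, with 19.2, 32.1, 38.9 and 43.2 normalised CPM against 39.3, 49.3, 38.2 and 63.1 (log2 fold change 0.52 ± 0.23, adjusted p = 0.432, edgeR), and Uqcrc1, the large core protein, with 58.3, 74.1, 91.9 and 89.5 against 71.5, 60.4, 80.4 and 82.9 (-0.08 ± 0.16, adjusted p = 0.912). Uqcr10, another small subunit, had 24.6, 33.2, 45.8 and 52.3 against 47.95, 59.8, 42.5 and 55.2 (0.40 ± 0.20, adjusted p = 0.504). In normalised CPM, control mouse 1 was the lowest of all 8 mice in 71 of the 78 tested nuclear members. Uqcr11, Uqcrc1 and Uqcr10 were among them. By share of counts, control mouse 1 was the highest control mouse for the nuclear members together (0.424%). Without it the log2 fold change was 0.32 for Uqcr11, 0.23 for Uqcr10, 0.14 for Sdhd, 0.28 for Ndufa4, 0.32 for Atp5mk and 0.13 for Cox4i1, and -0.21 for Uqcrc1. In complex IV, Ndufa4 had 41.3, 69.5, 80.5 and 93.05 against 79.5, 133, 75.03 and 107 (0.47 ± 0.23, adjusted p = 0.509), and Cox5a, a subunit facing the matrix, had 33.4, 42.7, 55.0 and 54.9 against 45.3, 43.5, 48.8 and 51.1 (0.03 ± 0.16, adjusted p = 0.974).

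In ATP synthase the highest fold change was that of Atp5mk, a small membrane subunit known for a part in pairing the enzyme, with 6.73, 13.2, 15.7 and 19.6 normalised CPM against 14.3, 23.6, 18.002 and 25.03 (log2 fold change 0.57 ± 0.27, adjusted p = 0.494, edgeR). Its gene overlaps Taf5 and Pdcd11 on the opposite strand, and only 2.44% of its windows were found in no transcript of another gene, although 92.0% occurred nowhere else in the genome, so its counts are uncertain if the counting ignored strand. Atp5f1a had 288, 323, 376 and 391 against 295, 256.5, 346 and 342 (-0.15 ± 0.17, adjusted p = 0.816). Atp5f1b, the most abundant nuclear mRNA of the chain, had 357, 410, 480 and 453 against 389, 366, 464 and 494 (0.01 ± 0.18, adjusted p = 0.988), and neither F1 subunit separated the diets. Atp5if1, the inhibitor that stops the enzyme from running backwards, had nearly equal means on both diets, although the control mice differed among themselves. Its values were 23.5, 34.2, 33.2 and 41.2 against 35.1, 32.4, 33.1 and 29.98 (-0.01 ± 0.16, adjusted p = 0.988, edgeR).

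The fold changes of the nuclear members were lower the longer their coding sequence, a relation noticed after the values were seen and therefore given as a description. Of the 12 tested members with 1000 or more coding bases, 3 were above 0 and the median was -0.11. These were mostly large catalytic or core subunits such as Sdha, Ndufs1, Atp5f1a and Uqcrc1. Of the 46 with under 500 coding bases, mostly small accessory subunits, 43 were above 0 and the median was 0.27, and of the 20 in between 18 were above 0 with a median of 0.25. Spearman's rho across the 78 members was -0.56, genes being no independent replicates, and it was -0.49 without control mouse 1 and -0.48 without zinc-deficient mouse 2. The same classes of all other protein-coding genes tested had medians of 0.23 (822 genes), 0.08 (2404 genes) and -0.05 (7237 genes), with a rho of -0.28. Members under 500 coding bases thus stood 0.04 above other genes of that class, members of 500 to 1000 bases 0.17 above, and members of 1000 bases or more 0.05 below (differences of medians). What couples coding length and fold change in these libraries was not tested.

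The balance between long and short members can be read in each mouse without any scaling. The summed counts of the members of 1000 bases or more, divided by those of the members under 500 bases, gave 1.06, 0.825, 0.780 and 0.738 in control mice 1 to 4 and 0.676, 0.494, 0.781 and 0.626 in zinc-deficient mice 1 to 4. Control mouse 1 was highest, zinc-deficient mouse 2 lowest, and zinc-deficient mouse 3 lay among the control mice, so the diets overlapped. The same mice marked the ends of the composition factors (1.57 and 0.719) and of the defensin share (35.7% and 50.9%). Atp5f1a and Atp5f1b are themselves among the members of 1000 bases or more, so their share repeats part of this ratio. Together they took 23.9%, 20.3%, 19.7% and 19.0% of the nuclear member counts in control mice and 17.9%, 14.6%, 20.3% and 17.97% in zinc-deficient mice. Other protein-coding genes were read by mouse as the median log2 normalised CPM under 500 coding bases minus that of 1000 or more. This gave -0.377 in control mouse 1 and 0.059 to 0.368 in the other control mice. Zinc-deficient mice 1 to 4 had 0.328, 0.464, 0.191 and 0.470. Control mouse 1 was thus at the long end in other genes as well.

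**Figure D4:**
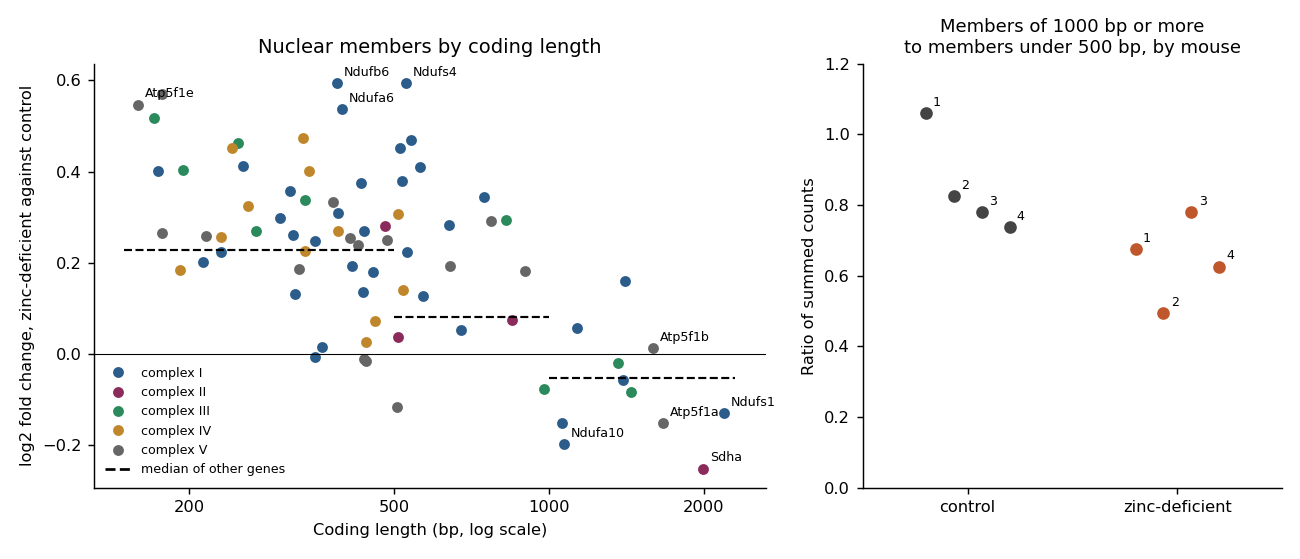
Left, log2 fold change of 77 of the 78 tested nuclear members (zinc-deficient against control) against coding length in bp on a log axis, coloured by complex, with dashed lines at the medians of other protein-coding genes of the same length class (0.23, 0.08 and -0.05). Right, ratio of summed counts of members of 1000 bp or more to members under 500 bp in each mouse, numbered by replicate, from 1.06 in control mouse 1 to 0.494 in zinc-deficient mouse 2.

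Several nuclear subunits are encoded by alternative genes, and in these cells each set was served by its broadly expressed form. Cox4i1 had 68.6, 107, 124 and 145 normalised CPM in control mice and 130, 155, 119 and 146 in zinc-deficient mice (log2 fold change 0.31 ± 0.19, adjusted p = 0.621, edgeR), while its lung form Cox4i2 had 0 counts in every mouse. Likewise the heart and muscle forms Cox6a2 and Cox8b and the testis forms Cox7b2 and Cox8c had 0 counts, which over the summed libraries allows at most 0.0349 CPM each by counting error alone. All windows of Cox4i2, Cox7b2 and Cox8c and 99.8% of those of Cox6a2 were unique, but of Cox8b 43.99% were, so that its 0 is less certain. The testis form Cox6b2 had 24 counts over all mice and the muscle form Cox7a1 had 71, or 0.491 ± 0.436 and 1.79 ± 0.88 normalised CPM per kb.

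Against these, Cox6a1 stood at 114 ± 26.1 normalised CPM per kb (SD, n = 8), Cox6b1 at 105.4 ± 23.8, Cox7b at 62.4 ± 20.8 and Cox8a at 122 ± 19.3. Cox7a2 (48.6 ± 13.2) was above Cox7a2l (27.4 ± 6.7), the relative known for linking complexes III and IV into supercomplexes. Of the windows of Cox7a2l 42.7% were unique, against 100% for Cox7a2, so the order of these 2 genes is uncertain. Ndufa4 exceeded Ndufa4l2, a form induced by low oxygen in other cells, with 160 ± 51.3 against 0.194 ± 0.152 normalised CPM per kb. The level of Ndufa4l2 rests on 19 counts over all mice, 9 of them in control mouse 1, and 26.5% of its windows were unique. None of the counted forms passed the test between diets: log2 fold changes were 0.22 ± 0.19 for Cox6a1, 0.32 ± 0.19 for Cox6b1, 0.40 ± 0.20 for Cox7a2, 0.14 ± 0.22 for Cox7a2l, 0.45 ± 0.25 for Cox7b and 0.07 ± 0.16 for Cox8a, with adjusted p between 0.509 and 0.927 (edgeR). Without control mouse 1 they were 0.082, 0.14, 0.23, -0.068, 0.26 and -0.072 in the same order.

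The c subunit, which forms the rotating ring of ATP synthase, is made from 3 genes whose mature proteins are the same. Atp5mc3 stood at 103 ± 19.5 normalised CPM per kb, Atp5mc1 at 52.5 ± 13.8 and Atp5mc2 at 16.2 ± 2.05. Only 21.5% of the windows of Atp5mc1 and 11.9% of those of Atp5mc2 were unique, against 83.4% for Atp5mc3, so the order of these 3 genes is uncertain. Their log2 fold changes were 0.24 ± 0.17, 0.25 ± 0.21 and -0.02 ± 0.18 (adjusted p of 0.687, 0.730 and 0.986, edgeR), and 0.093, 0.10 and -0.13 without control mouse 1.

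**Figure D5:**
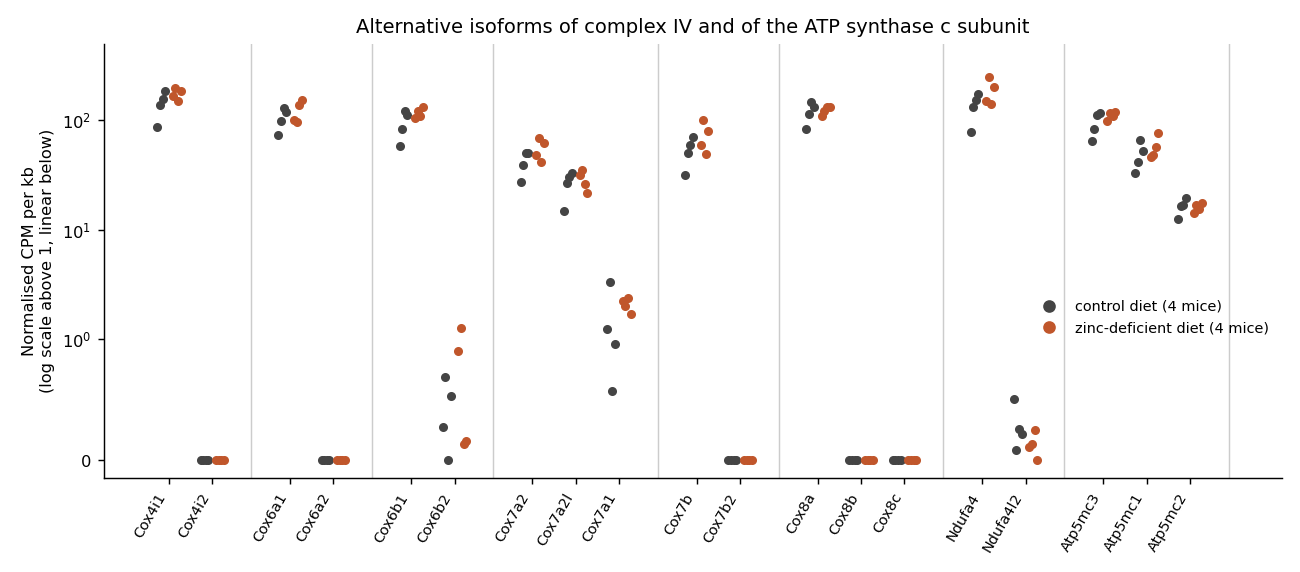
Levels of alternative isoforms in each mouse (normalised CPM per kb of mRNA, log scale above 1 and linear below; dark points are control mice, orange points zinc-deficient mice, 4 each). Cox4i2, Cox6a2, Cox7b2, Cox8b and Cox8c lie at 0 in all mice, and the broadly expressed forms of complex IV average from 27.4 (Cox7a2l) to 160 (Ndufa4).

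A few nuclear members without a tissue-restricted role also had few counts. Atp5mg, a membrane subunit of ATP synthase, had 37 counts over all mice, Ndufb4 120 and Ndufs5 236. In the same order they stood at 0.705, 1.42 and 5.14 normalised CPM per kb, where the median tested nuclear member stood at 34.0. Stretches of their coding sequences occur unchanged in copies elsewhere in the genome. The following runs of 60 coding bases, numbered from the start of the coding sequence, are the same in the gene and in the copy.
Atp5mg (bases 97 to 156, copy Gm10221 at chr5:24786750-24786809, minus strand): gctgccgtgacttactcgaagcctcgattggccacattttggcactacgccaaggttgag
Ndufs5 (bases 1 to 60, copy Ndufs5-ps at chr16:42775994-42776053, plus strand): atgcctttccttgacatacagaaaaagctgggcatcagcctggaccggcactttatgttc
Ndufb4 (bases 1 to 60, copy Ndufb4c at chr15:73681686-73681745, minus strand): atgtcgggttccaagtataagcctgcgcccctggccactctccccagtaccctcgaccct

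Of the 70-base windows, 24.7% were unique in Atp5mg, 29.7% in Ndufs5 and 59.98% in Ndufb4, and the copies themselves had 6 counts (Gm10221), 3 counts (Ndufs5-ps) and 0 counts (Ndufb4c) over all mice. Other genes annotated over copies had more, Abcf2 2361 counts at the Gm10221 locus, Zbtb20 280 at the Ndufs5-ps locus and Dock8 835 at another copy of Ndufb4, and Atp5mg shared windows with 10 loci. Few counts and shared windows did not go together throughout: Cox7c, a small subunit of complex IV, had 1886 counts with 29.7% unique windows. Low levels per kb also occurred with mostly unique windows, on long mRNAs. Ndufb2 (4389 bases, 85% unique) had 567 counts or 1.55 normalised CPM per kb. Ndufa10 (7389 bases, 100% unique) had 2852 counts or 4.32, so both stood below Ndufs5 per kb. Over the 82 nuclear members with a count, the share of unique windows and the level per kb had a Spearman's rho of 0.18, which is a description across genes. The level of Atp5mg, Ndufs5 and Ndufb4 is therefore uncertain. The log2 fold changes of Ndufs5 (0.13 ± 0.37) and Ndufb4 (0.31 ± 0.48) carry the widest errors of the chain. Among the 50 tested members with at least 80% unique windows, the median fold change was 0.23 and 40 were above 0, close to all 78.

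Genes that serve the chain were counted beside its subunits. Of 51 assembly factors, 50 were tested and 0 called (median log2 fold change 0.10), the ends being Ndufaf8, a complex I factor (0.69 ± 0.24, adjusted p = 0.281, edgeR), and Cmc2, a complex IV factor (-0.64 ± 0.36, adjusted p = 0.571). Of 27 genes found for the maintenance and expression of mitochondrial DNA, 25 were tested and 0 called (median 0.00), from Slirp, which stabilises mitochondrial mRNAs (0.67 ± 0.26, adjusted p = 0.353), to Polg2, a subunit of the mitochondrial DNA polymerase (-1.04 ± 0.61, adjusted p = 0.590). Of these 25 genes, 13 had a fold change above 0 and 12 below. Among the 50 assembly factors, 36 were above and 14 below.

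Mitochondrial ribosomal proteins had a median of 0.18 (76 tested, 60 above 0, 0 called), from Mrps33 (0.88 ± 0.42) to Mrpl49 (-0.44 ± 0.20). Citrate cycle genes, which feed the chain with NADH and succinate and mostly encode large enzymes, had a median of -0.04 (18 tested, 7 above 0, 0 called), from Ogdh (0.15 ± 0.16) to Pdhx (-0.32 ± 0.21). Of 10 electron carrier and membrane proteins 0 were called (median 0.17). Cycs, the cytochrome c that joins complexes III and IV, was highest there (0.36 ± 0.26, adjusted p = 0.681, edgeR), and Slc25a4, an ADP and ATP exchanger, was lowest (-1.13 ± 0.40, adjusted p = 0.277). Cytosolic ribosomal proteins, short abundant mRNAs outside the mitochondrion, had the highest median of these groups at 0.31 (81 tested, 80 above 0, 0 called), above the 0.25 of the nuclear respiratory chain.

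The promoters of the nuclear members were searched for short motifs of factors known to act on respiratory chain genes, from 250 bases before to 50 bases after the annotated start, on both strands. The NRF1 motif GCATGCGC was in 9 of 89 promoters (10.1%), beside 3.68% of 21614 promoters of protein-coding genes. AAGGTCA, read by estrogen-related receptors, was in 8 (8.99% beside 4.42%), ATGGCGG of YY1 in 7 (7.87% beside 3.96%), and CCGGAAGT of the ETS family in 4 (4.49% beside 4.37%). At least 1 of the 4 was in 24 promoters (27.0% beside 15.2%), and no motif contains another. These are matches of letters, not measured sites. Promoters of 3 members are shown, as the 150 bases before the start with the motif in capitals: Ndufa6 and Uqcr11, which had among the lowest unadjusted p of the chain, and Cox6a1, one of its most abundant small subunits, where NRF1 matches on both strands overlap.
Ndufa6 (chr15:82238524-82238673, GRCm39, minus strand, NRF1): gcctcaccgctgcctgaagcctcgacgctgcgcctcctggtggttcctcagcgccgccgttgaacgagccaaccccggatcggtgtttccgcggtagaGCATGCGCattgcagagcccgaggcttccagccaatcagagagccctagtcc
Uqcr11 (chr10:80242677-80242826, GRCm39, minus strand, ETS): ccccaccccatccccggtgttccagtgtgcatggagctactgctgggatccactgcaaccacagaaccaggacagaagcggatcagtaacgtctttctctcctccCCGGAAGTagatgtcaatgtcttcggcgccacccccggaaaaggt
Cox6a1 (chr5:115487041-115487190, GRCm39, minus strand, NRF1): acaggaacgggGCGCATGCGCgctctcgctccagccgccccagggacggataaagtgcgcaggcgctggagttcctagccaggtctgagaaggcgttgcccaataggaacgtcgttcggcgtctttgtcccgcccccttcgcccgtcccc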

How the data were processed

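FACS-sorted Paneth cells of 4 mice fed control chow and 4 mice fed zinc-depleted chow during 7 weeks gave 1 stranded mRNA library each (C57BL/6J). Raw counts, whole numbers of reads for every Ensembl gene, are what the authors deposited. The submitters' processing notes name FastQC 0.12.0, STAR 2.7.0a, DESeq2 and the build mm39. The counting program, with its strand setting and its treatment of reads that match several places, was not given in the sources used here. Column names gave diet and number of each mouse, with 0 further columns of values. Labels number the mice within each diet as replicates, and pairs of mice of 1 diet differed by at least 5.70 in chi-square per degree of freedom, so no library was counted more than once.

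Gene symbols, positions and canonical transcripts came from GENCODE M39 on GRCm39, where 54749 of 55414 identifiers were found. The diet comparison used edgeR 4.0.16 (R 4.3.3) with TMM factors, filterByExpr, which left 10911 genes, and the quasi-likelihood test in its robust form, with p adjusted after Benjamini and Hochberg and a threshold of 0.05. Each SE of a log2 fold change is its size divided by the square root of the F statistic of this test. DESeq2 1.42.0 was the alternative test. Tested on simulated data, counts for these 10911 genes drawn at the observed levels and depths of the diet comparison, the step called 68% of 100 genes changed 2-fold and 96% of 100 changed 4-fold, and 5.20% of its calls were on unchanged genes. Levels per kb use the canonical mRNA length. Where a gene had 0 counts, counting error alone allows an expected count of up to 3, which sets a limit of 0.237 to 0.351 CPM in a library. Shares and medians over members have no test. Windows of 50, 70 and 100 bases were searched on both strands in the genome outside the gene and in all transcripts of other genes, and nuclear copies of mitochondrial genes were aligned with BLAST 2.17.0. Promoter and coding stretches were read from the GRCm39 genome. Other steps used Python 3.11.15, pysam 0.24.0, numba 0.67.0, matplotlib 3.10.9, pandas 2.3.3, scipy 1.17.1 and numpy 2.4.6.

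Members, gene lists and tests were chosen with earlier results of these data known. Named in full were the mitochondrial genes, members whose values did not overlap between diets (0 members being called), in each complex the member with the largest rise, the largest fall and the highest level per kb, and a list of isoforms. Of the members this rule names, 1 is not reported here and is left out of the plots of fold changes. The split by coding length was added after the values were seen, and other members named with it or with the shared sequences were chosen then. Fastkd4 of the list for mitochondrial DNA was not found by symbol. Alternative settings changed the scaling, the low-count filter, the tool, the unit of the shares or the mice used, or added replicate number as a block.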

Additional observations from a re-analysis of the deposited data

Results flagged for a closer look

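Gm13340, a gene annotated in the nuclear copy of mt-Co1 on chromosome 2 and outside the respiratory chain members, had 150 counts over the 8 mice, between 7 and 33 in each. Over the same libraries mt-Co1 had 199430 counts. What these counts stem from was not tested.

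Shares, ratios and named members were checked in 72 groups of 4 mice for a mouse that stands apart by Dixon's rule, and 0 groups had one. With 4 values the rule flags only an extreme gap, and the groups share the same mice. It therefore does not show that no mouse stands apart. In normalised CPM, where it has the highest composition factor (1.57), control mouse 1 was the lowest of all 8 mice in 71 of the 78 tested nuclear members. By share of counts on the nuclear members together it was the highest control mouse (0.424%), so its place turns with the scaling. In the share of mitochondrial counts on mt-Co1 it stood at 36.6%, and the other control mice at 41.3% to 41.8%.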

How the results depend on the processing

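Of the nuclear and mitochondrial members, 0 were called in every setting tried, including each mouse left out in turn. All genes called were 44, and 11 with library size only, 251 without the filter on low counts, 25 without the robust option, 134 with DESeq2, and 8 to 36 with 1 mouse left out (8 without control mouse 2 or 4, 13 without zinc-deficient mouse 2). The replicate block gave 53 calls among all genes, 0 among the members, and medians of 0.26 and 0.04 for nuclear and mitochondrial members. Mice of the same number did not deviate together (correlations of 0.074, 0.089, 0.033 and 0.057), and control mouse 3 correlated best with zinc-deficient mouse 4 (0.134). The nuclear median of 0.25 was -0.064 with library size only, and 0.063 to 0.353 with 1 mouse left out. The mitochondrial median of 0.09 was -0.28 with library size only, and -0.16 to 0.24 with 1 mouse left out. With 1 mouse left out, the difference in share ranged from -0.064 to -0.020 percentage points for nuclear and from -0.15 to -0.048 for mitochondrial counts, and that of the log2 ratio from -0.34 to 0.033. Computed from TPM the 3 differences were -0.017, -0.099 and -0.17, and without the defensin genes in the total the shares gave -0.043 and -0.13. The shares are smaller from TPM and larger without the defensin genes, so their differences in points cannot be compared in size.

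None of the members with a reversed sign was called. With library size only, log2 fold changes turned to -0.30 (Atp5f1b), -0.041 (Atp5mc1), -0.057 (Atp5mc3), -0.27 (Cox5a), -0.057 (Cox6a1), -0.15 (Cox7a2l), -0.22 (Cox8a), -0.096 (Ndufa1), -0.037 (Sdhd), -0.24 (mt-Co1), -0.25 (mt-Cytb), -0.28 (mt-Nd1), -0.29 (mt-Nd2) and -0.31 (mt-Nd4), where the median of all genes was -0.37. Atp5if1 turned to 0.0050 with RLE size factors, 0.0093 with the block and 0.0074 with DESeq2, and Atp5mc2 to 0.0016 with RLE size factors and 0.0059 with DESeq2. With 1 mouse left out, the ranges that cross 0 were -0.065 to 0.082 (Atp5f1b), -0.15 to 0.11 (Atp5if1), -0.13 to 0.077 (Atp5mc2), -0.11 to 0.12 (Cox5a), -0.068 to 0.27 (Cox7a2l), -0.072 to 0.19 (Cox8a), -0.019 to 0.36 (Ndufa1), -0.21 to 0.0028 (Uqcrc1), -0.16 to 0.29 (mt-Co1), -0.14 to 0.29 (mt-Cytb), -0.15 to 0.25 (mt-Nd1), -0.11 to 0.24 (mt-Nd2), -0.16 to 0.23 (mt-Nd4) and -0.37 to 0.062 (mt-Nd5). The cause of these changes was not tested.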
